A study of Physcomitrium patens with 3 samples.

Results

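The plastid genome gave 17 double-stranded RNA loci, out of 39975 loci listed in 3 libraries of moss protonemata. They are all the loci whose coordinates lie on the sequence named plastid, a choice by position and not by read count. The protonema is the filamentous juvenile tissue of Physcomitrium patens, and it was 10 days old in every library. The libraries come from wild type, from an rdr2 mutant and from an rdr6 mutant, all grown alike on ammonium-containing BCD medium, with 1 library per genotype. The labels give no allele, and the file deposited for the rdr2 library is named with another rdr number. The label was followed, and RDR2 and RDR6 themselves could not be looked up because the loci carry no gene names. Total RNA was depleted of ribosomal RNA and digested with a ribonuclease that attacks single strands, so the reads stand for RNA that was protected as a duplex.

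Plastids are the photosynthetic organelles, and they keep a circular genome of their own. Their polymerases transcribe long stretches of it as multi-gene units, often from both strands, and transcripts of opposite strands can pair into duplexes. Structured RNAs such as ribosomal and transfer RNA also hold paired stretches. RDR2 and RDR6 belong to the RNA-dependent RNA polymerases, which copy single-stranded RNA into duplex. In flowering plants they are known for making precursors of nuclear and cytoplasmic small interfering RNAs. Plastid loci let the genotypes be set side by side on RNA of another compartment. With 1 library per genotype there is no replicate check and no test between genotypes, so higher and lower describe these 3 libraries. Intervals are exact 95% intervals of counting error alone. Reads of bulk tissue do not separate fewer plastids per sample from less duplex RNA per plastid.

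The 17 loci, Cluster_39908 to Cluster_39924, nearly tiled the plastid sequence. They ran from base 129 to base 122757 and covered 118316 bases, or 96.5% of that span. Between them lay 16 gaps of 205 to 444 bases, with a median of 236. The loci were 279 to 22175 bases long, with a median of 5249, against medians of 642 bases for the 51 mitochondrial loci and 20 bases for the 39907 nuclear loci. Together they held 1656110 reads of the wild-type library, 1277357 of rdr2 and 2606869 of rdr6. These were 27.9% (27.9 to 28.0), 14.7% (14.7 to 14.7) and 32.3% (32.2 to 32.3) of the reads in loci. All 17 passed the minimum of 20 reads over the 3 libraries that was set for comparing loci, as did 3763 loci in all.

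Genes were placed on the loci from the RefSeq gene table of assembly ASM5946719v1, whose plastid part lists 130 genes. The sources used here do not give the build behind the deposited coordinates, so the numbering was compared first. Of the 34 ends of the loci, 8 fell within 5 bases of the matching end of a gene in that table, at 7 loci, and 2 fell on it exactly. Both exact ends belong to copies of trnV, a valine transfer RNA gene, at the start of Cluster_39920 and at the end of Cluster_39923. The duplicated ribosomal RNA genes of the table are mirrored about the same point as those ends, with a difference of 0 bases. The trnV copies lie in the same mirrored stretch as those genes, so this follows from the 2 exact ends and is no separate check. Short insertions elsewhere were not examined, and no coordinate of the table is used. By this numbering 122 of the 130 genes lie wholly inside a locus, and all 130 touch one. No sequence of this build was at hand, and a read count belongs to a whole locus, so no reads are assigned to a single gene.

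Cluster_39920 (plastid 86071 to 94734, 8664 bases) and Cluster_39923 (107750 to 122031, 14282 bases) hold the plastid ribosomal RNA genes. Each contains a full copy of rrn16, rrn23, rrn4.5 and rrn5, which encode the RNAs of the plastid ribosome, and 5 transfer RNA genes. Cluster_39923 also holds chlL and chlN, subunits of an enzyme of chlorophyll synthesis that works in the dark, and 61.0% of ycf1. Their ends show the inverted repeat of the plastid genome in the deposited coordinates alone. The start of Cluster_39920 mirrors the end of Cluster_39923, and the short loci outside them, Cluster_39919 (85348 to 85626) and Cluster_39924 (122475 to 122757), mirror each other about the same point to within 4 bases. The mirror image of Cluster_39920 runs from 113368 to 122031, which leaves the first 5618 bases of Cluster_39923 outside it.

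Read counts at Cluster_39920 were 826377 (wild type), 829204 (rdr2) and 1413382 (rdr6), and libraries are given in this order below. Cluster_39923 had 333638, 314367 and 566113 reads. Although it contains the whole mirror image, Cluster_39923 had fewer reads than Cluster_39920 in every library, with ratios of 0.404 (0.402 to 0.405), 0.379 (0.378 to 0.381) and 0.401 (0.399 to 0.402). The shorter mirrored pair was ordered the other way, with 136 reads at Cluster_39924 against 65 at Cluster_39919 in wild type and 277 against 112 in rdr6. In rdr2 they had 10 and 8 reads, a ratio of 1.25 whose interval of 0.444 to 3.64 gives no order. The sources used here do not say how reads that match both copies were placed, so values within a mirrored pair may share reads.

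Per length, the ribosomal RNA loci stood above all other plastid loci in all 3 libraries. Cluster_39920 reached 13641, 9863 and 17455 RPM per kb, where RPM is the authors' unit, reads scaled to the library total. Cluster_39923 followed with 3341, 2268 and 4241 RPM per kb. Next in wild type and rdr6 was Cluster_39911, with 2160 and 2028 RPM per kb, while rdr2 had 122 there. The lowest density in every library was that of Cluster_39922, with 19.5, 0.261 and 17.003 RPM per kb. From highest to lowest locus, densities spanned 701-fold in wild type and 1027-fold in rdr6. In rdr2 they spanned 37740-fold, with only 3 reads at the lowest locus.

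**Figure D1:**
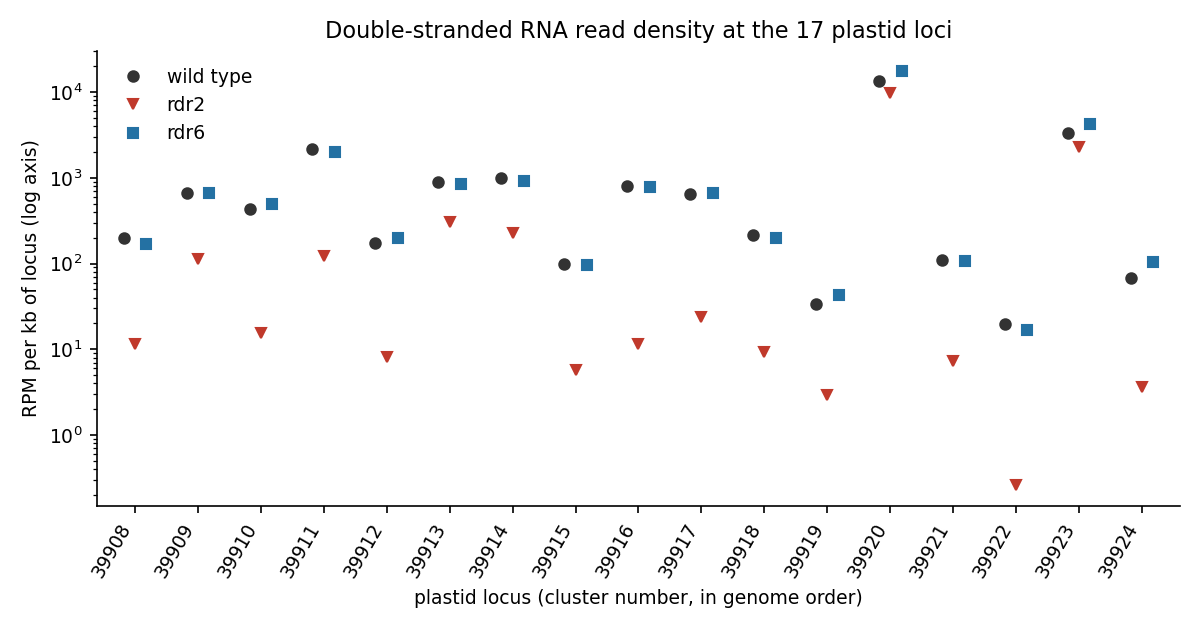
Read density of the 17 plastid loci in genome order, in RPM per kb of locus on a log axis, with 1 point per library (circle wild type, triangle rdr2, square rdr6). Wild type and rdr6 lie close together at each locus, Cluster_39920 is highest with 9863 to 17455 RPM per kb, and the rdr2 points lie lowest, which for Cluster_39920 and Cluster_39923 holds on the RPM scale and with all locus reads as the total but not under the 3 other scalings.

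The order of densities was nearly shared between wild type and rdr6. Spearman's rho of reads per kb over the 17 loci was 0.99 between these libraries and 0.96 between wild type and rdr2, as a description of loci that share libraries and a genome. In wild type, adjacent loci in the order were separated beyond counting error except Cluster_39909 and Cluster_39917, with 4609 and 4529 reads per kb. In rdr2 5 of 16 adjacent pairs had overlapping intervals, and in rdr6 4 of 16. The largest change of rank between wild type and rdr2 was 4 places, at Cluster_39916, which was sixth of 17 in wild type and rdr6 and ranked 10 in rdr2. Longer loci held more reads and more reads per kb: rho between length and reads per kb was 0.71, 0.73 and 0.66 in the 3 libraries. How the bounds of the loci were drawn is not given. If reads set them, length is not independent of reads, here and in other relations with length.

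As shares of plastid reads, which no library scaling can alter, the ribosomal RNA loci took most of each library and most of all in rdr2. Cluster_39920 held 49.9% (49.8 to 50.0), 64.9% (64.8 to 65.0) and 54.2% (54.2 to 54.3) of plastid reads. Cluster_39923 held 20.1% (20.1 to 20.2), 24.6% (24.5 to 24.7) and 21.7% (21.7 to 21.8). Together they held 70.0%, 89.5% and 75.9%. The other 15 loci were left with 30.0%, 10.5% and 24.1%, although they make up most of the covered bases. By length the ribosomal RNA loci are 19.4% of these bases. The labels describe 1 or 2 rounds of ribosomal RNA depletion without saying which library had which, and the part of this step in these shares was not tested.

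**Figure D2:**
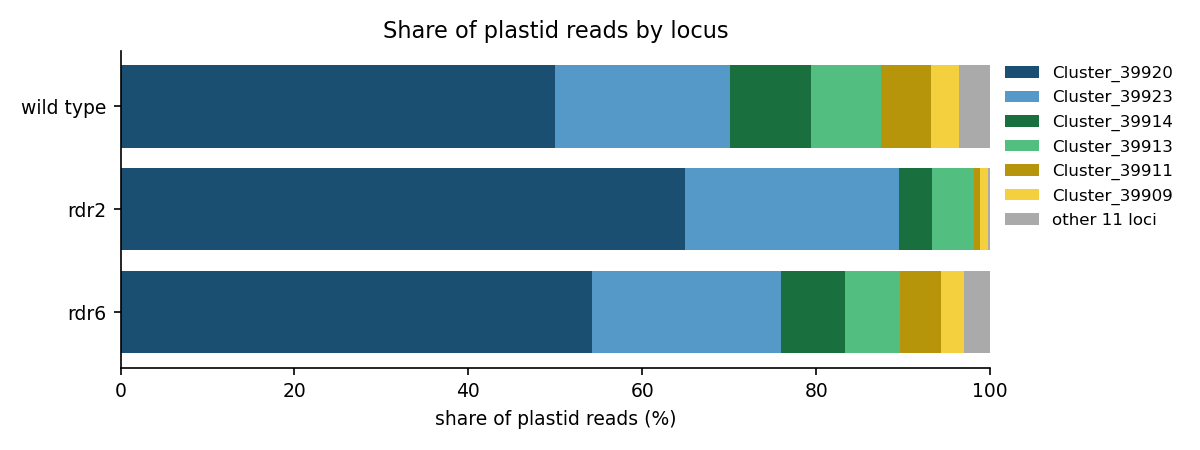
Share of plastid reads, in percent, taken by the 6 plastid loci with most reads in wild type and by the other 11 together, with 1 stacked bar per library. Cluster_39920 and Cluster_39923 together take 70.0% (wild type), 89.5% (rdr2) and 75.9% (rdr6).

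In rdr2 all 17 plastid loci had lower RPM than in wild type, from 1.38-fold lower at Cluster_39920 to 74.5-fold lower at Cluster_39922, with a median log2 ratio of -4.13. Over all 3763 loci compared the median was -1.41. A locus was called when its RPM ratio was at least 4-fold and its interval lay wholly beyond 2-fold. By this rule 14 of 17 plastid loci were lower in rdr2 and 0 were higher, where 26.2% of all loci compared were called lower and 0.505% higher. Among the 37 mitochondrial loci compared, 22 (59.5%) were called lower. Loci with few reads have wide intervals and meet the rule less easily, and these percentages were not matched for reads. The 3 uncalled plastid loci were the ribosomal RNA loci and Cluster_39913, the last at 2.97-fold lower. The rdr2 library was the deepest of the 3, with 8698124 reads in loci against 5926254 in wild type and 8078929 in rdr6. Its nuclear loci took 84.8% of its reads in loci, against 70.7% in wild type. RPM ratios of plastid loci move with that share. Other scalings of the libraries raised every rdr2 ratio by a common factor, except the use of all locus reads as the total, which lowered it. With the reads outside the 1% of loci with most reads as the total, the median over all loci was -0.04, that of the plastid loci was -2.76, and 12 plastid loci were called lower. A scaling shifts all loci alike, so the plastid median lay 2.72 below that of all loci on the log2 scale under each.

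**Figure D3:**
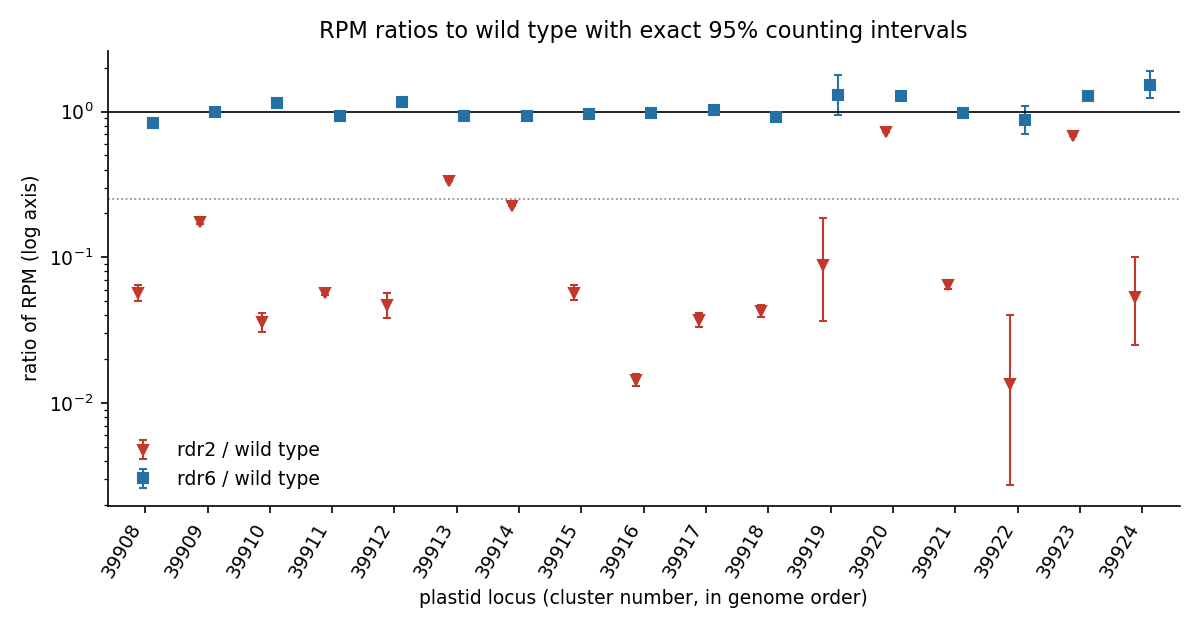
Ratio of RPM to wild type on a log axis at each plastid locus, for rdr2 (triangles) and rdr6 (squares), with exact 95% counting intervals as bars. The solid line marks equal RPM and the dotted line a 4-fold lower RPM. All rdr2 points lie below 1 on this scale (Cluster_39920 and Cluster_39923 lie above 1 when scaled by TMM, median of ratios or reads outside the top 1%), and rdr6 points lie between 0.840 and 1.52.

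The ribosomal RNA loci were nearest to wild type on the RPM scale. Cluster_39920 went from 118184 RPM in wild type to 85453 in rdr2, a 1.38-fold difference (1.38 to 1.39). Cluster_39923 had 47715 and 32397 RPM, a 1.47-fold difference (1.47 to 1.48). Both were above wild type under 3 of the 4 other scalings (TMM, median of ratios, reads outside the top 1%), so their direction rests on the scaling. As shares of plastid reads they were 1.30-fold (1.30 to 1.30) and 1.22-fold (1.22 to 1.23) higher in rdr2.

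Long loci with photosynthesis genes and many transfer RNA genes came next. Cluster_39913 (24196 to 45144, 20949 bases) contains 25 genes, among them rbcL for the large subunit of the carbon-fixing enzyme Rubisco, atpB and atpE of the ATP synthase, psaA and psaB of the photosystem I core, psbC and psbD of photosystem II, and 11 transfer RNA genes. Its read counts were 132618, 61911 and 165843, or 18966, 6380 and 17745 RPM. It was 2.97-fold lower in rdr2 than in wild type (2.94 to 3.001), and its share of plastid reads went from 8.01% to 4.85%. Cluster_39914 (45351 to 67525, 22175 bases) contains 21 genes, 9 of them transfer RNA genes. Its other genes include psbA for the D1 protein of photosystem II, atpA, atpF, atpH and atpI of the ATP synthase, chlB of chlorophyll synthesis and ycf2. Its read counts were 155057, 48647 and 192204, or 22176, 5013 and 20565 RPM. The rdr2 level was 4.42-fold lower than wild type (4.38 to 4.47). Its share of plastid reads was 9.36% in wild type and 3.81% in rdr2.

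Cluster_39909 (2706 to 14177, 11472 bases) holds psbB, psbT and psbH of photosystem II beside petB and petD of the cytochrome b6f complex, which passes electrons between the photosystems. Here 52880, 12724 and 70534 reads were counted, or 7563, 1311 and 7547 RPM. The difference of rdr2 from wild type was 5.77-fold (5.66 to 5.88), with shares of plastid reads of 3.19% and 0.996%. Cluster_39911 (16008 to 22360, 6353 bases) has the same kinds of genes: psbE, psbF, psbL and psbJ of photosystem II, and petA, petG and petL of the cytochrome b6f complex. Here 95964, 7534 and 120395 reads were counted, or 13724, 776 and 12882 RPM, with rdr2 17.7-fold below wild type (17.3 to 18.1). Its share of plastid reads was 5.79% in wild type and 0.590% in rdr2. Loci with similar gene content thus stood at unlike levels relative to wild type, and their intervals did not overlap.

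The largest rdr2 difference with a narrow interval was at RNA polymerase genes. Cluster_39916 (73757 to 77829, 4073 bases) covers nearly all of rpoB and 28.2% of rpoC1, which encode subunits of the bacterial-type plastid RNA polymerase. Its reads numbered 22589, 450 and 29605, or 3231, 46.4 and 3168 RPM. The rdr2 level was 69.7-fold below wild type (63.5 to 76.6), and the share of plastid reads went from 1.36% to 0.0352%, 38.7-fold lower. Its neighbour Cluster_39915 (67740 to 73436, 5697 bases) covers 97.0% of rpoC2 and 60.5% of rpoC1, the same gene group. Its reads numbered 3956, 314 and 5091, with rdr2 17.5-fold below wild type (15.6 to 19.7). Per kb, Cluster_39916 had 793 RPM in wild type against 99.3 at Cluster_39915, and in rdr2 11.4 against 5.68.

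Ribosomal protein genes lie at several other loci. Cluster_39918 (79874 to 85122, 5249 bases) holds 7 ribosomal protein genes, among them rpl2, rpl16 and rps3, and a transfer RNA gene. From 7963, 476 and 9710 reads, rdr2 stood 23.2-fold below wild type (21.2 to 25.5). Cluster_39910 (14451 to 15791, 1341 bases) holds rpl20, rps18 and rpl33 beside psaJ of photosystem I. Its 4032, 200 and 6214 reads gave a level 28.0-fold lower in rdr2 (24.3 to 32.4). Cluster_39908 (129 to 2444, 2316 bases) holds rps7 and 35.6% of ndhB. With 3258, 258 and 3659 reads it stood 17.5-fold below (15.4 to 19.97). Ribosomal protein genes also lie within Cluster_39909, Cluster_39913 and Cluster_39921, whose rdr2 levels were 5.77-fold, 2.97-fold and 15.4-fold below wild type, so loci with such genes did not share 1 size of difference.

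The remaining loci ranged from 11.3-fold to 74.5-fold below wild type in rdr2. Cluster_39917 (78036 to 79626, 1591 bases) had 7205, 372 and 9810 reads, with rdr2 26.9-fold below wild type (24.2 to 29.9). Cluster_39921 (94952 to 105988, 11037 bases) spans 6 whole genes of the NADH dehydrogenase-like complex, which carries electrons around photosystem I, and psaC. Its 8565, 772 and 11183 reads put rdr2 15.4-fold below wild type (14.3 to 16.6). Although it is the fifth longest plastid locus, its density of 111 RPM per kb in wild type ranked 13 of 17. Cluster_39912 (22619 to 23990, 1372 bases) holds psaI and nearly all of accD, which encodes a subunit of the enzyme that starts fatty acid synthesis. Its 1646, 107 and 2549 reads gave a level 21.3-fold lower in rdr2 (17.5 to 26.2). Cluster_39922 (106214 to 107396, 1183 bases) lies wholly within ycf1 and had 161, 3 and 188 reads. Its ratio was 74.5-fold lower in rdr2, with an interval from 25.03 to 365 that also takes in the ratio of Cluster_39916. Cluster_39919 and Cluster_39924, the mirrored short loci, contain no gene of the table. They were 11.3-fold (5.40 to 27.2) and 18.9-fold (9.95 to 40.2) lower in rdr2, on 8 and 10 rdr2 reads.

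Grouped by gene content, the 2 loci with ribosomal RNA genes were 1.41-fold lower in rdr2 when their reads were pooled (1.40 to 1.41). The 7 loci with whole photosynthesis genes and no ribosomal RNA gene were 4.74-fold lower (4.71 to 4.77) when pooled, with single loci from 2.97-fold to 28.0-fold and a median of 15.4-fold. Without Cluster_39913 and Cluster_39914, which hold most of their reads, the pooled value was 10.6-fold (10.5 to 10.8). The 8 loci with neither were 33.3-fold lower (31.8 to 34.9) when pooled, with single loci from 11.3-fold to 74.5-fold and a median of 21.0-fold. Without Cluster_39916 the pooled value was 21.9-fold (20.8 to 23.1). These groups were formed with the values known and were not tested, and their single loci overlapped. They took no account of transfer RNA genes, of which Cluster_39913 and Cluster_39914 hold 11 and 9 of the 36 listed. Over the 17 loci, rho between length and the rdr2 ratio was 0.68, and over the 15 loci without ribosomal RNA genes it was 0.60. Between the ratio and reads per kb in rdr6, a library outside the ratio, rho was 0.44 over 17 loci and 0.18 over the 15.

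Within-plastid shares set the loci against each other without a library total. They multiply every RPM ratio by 1 common factor, so the order of loci is fixed and only their place relative to 1 can change. In rdr2, 15 of 17 loci had a lower share of plastid reads than in wild type and 2 a higher one, and the interval of each of the 17 excluded equal shares. The shares of 12 loci were at least 4-fold lower with an interval beyond 2-fold. When every locus was scaled to the reads of its own compartment, 34.5% of all loci compared met this rule as lower and 0.372% as higher. Because shares sum to a fixed total, the higher shares of the ribosomal RNA loci lower the others. Set against the reads of the 15 other loci alone, Cluster_39913 had 26.7%, 46.3% and 26.4%, and Cluster_39914 had 31.3%, 36.4% and 30.6%. Cluster_39909 had 10.7%, 9.51% and 11.2%. Cluster_39911 went from 19.3% in wild type to 5.63% in rdr2, with 19.2% in rdr6, and Cluster_39916 from 4.55% to 0.336%, with 4.72% in rdr6. On this base 6 loci met the size rule as lower in rdr2, and no share over all loci is given for a like base. Cluster_39913 and Cluster_39914 together made up 58.0%, 82.6% and 57.1% of the reads outside the ribosomal RNA loci.

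**Figure D4:**
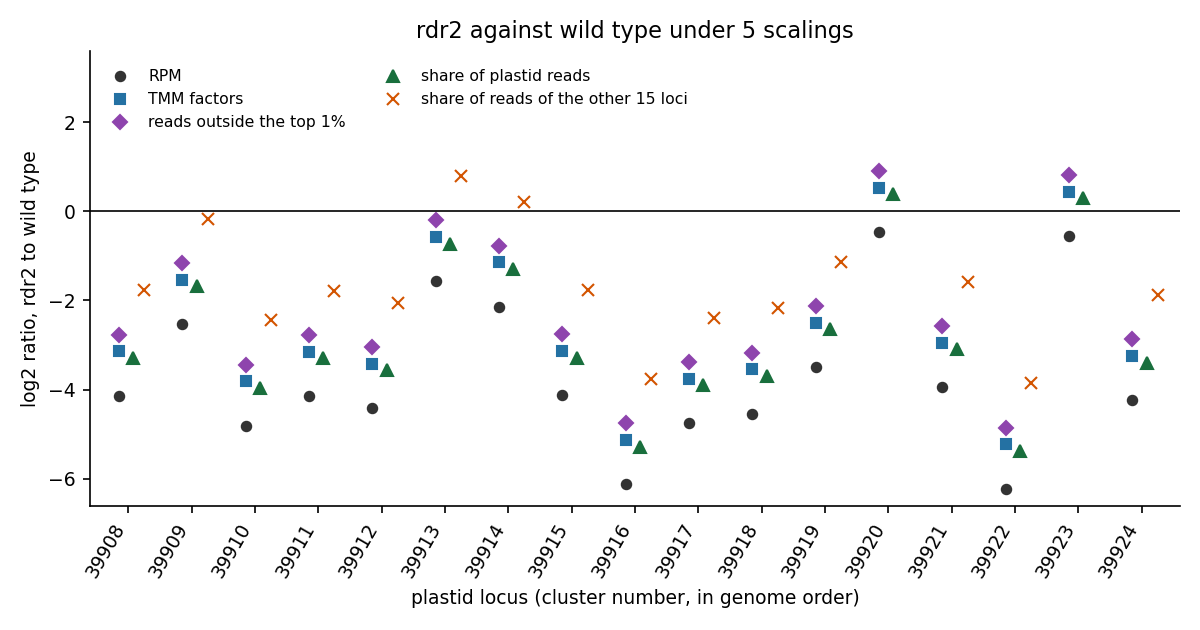
Log2 ratio of rdr2 to wild type at each plastid locus under 5 scalings: RPM, TMM factors, reads outside the top 1% of loci, share of plastid reads, and share of the reads of the 15 loci without ribosomal RNA genes (crosses). Each scaling shifts all loci alike, so their order is fixed by construction. Cluster_39920 and Cluster_39923 lie below 0 in RPM only among the scalings drawn, and Cluster_39913 and Cluster_39914 lie above 0 in their share among the 15 loci.

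In rdr6 the plastid loci stayed near wild type. RPM ratios ran from 0.840 at Cluster_39908 to 1.52 at Cluster_39924, with a median log2 ratio of -0.03 against 0.10 over all loci compared. The ratio was above 1 at 7 loci and below it at 10, and the interval excluded 1 at 5 and 6 of them, respectively. With reads pooled, plastid RPM was 1.18-fold higher (1.175 to 1.180). By share of plastid reads 13 loci were lower and 4 higher, with intervals that excluded equal shares at 11 and 3. Cluster_39920 and Cluster_39923 had higher shares, as in rdr2, at 1.09-fold (1.08 to 1.09) and 1.08-fold (1.07 to 1.08). None of the 17 was called lower or higher, where 1.51% of all loci were called lower and 1.54% higher, and none by within-plastid share, where 1.38% of all loci, each within its compartment, were called lower and 1.65% higher. This comparison shares the wild-type library with the first. The ribosomal RNA loci were higher in rdr6, with 151227 against 118184 RPM at Cluster_39920, 1.28-fold (1.28 to 1.28), and 60572 against 47715 at Cluster_39923, 1.27-fold (1.26 to 1.27). Both stayed above wild type under all 4 other scalings. Cluster_39910 and Cluster_39912 were 1.15-fold (1.11 to 1.20) and 1.16-fold (1.09 to 1.23) higher, and Cluster_39924 1.52-fold (1.24 to 1.88). As shares of plastid reads, Cluster_39910 and Cluster_39912 had ratios of 0.979 (0.941 to 1.02) and 0.984 (0.924 to 1.05), with intervals that included equal shares. Cluster_39919, at 1.29-fold in RPM, had an interval of 0.941 to 1.78. On the lower side, Cluster_39908 was 1.19-fold (1.13 to 1.25) and Cluster_39918 1.10-fold (1.06 to 1.13) below wild type. Cluster_39913, Cluster_39914 and Cluster_39911 were 1.07-fold, 1.08-fold and 1.07-fold below it, and Cluster_39916 1.02-fold (1.00 to 1.04). Cluster_39909, Cluster_39915, Cluster_39921 and Cluster_39922 lay below wild type with intervals that included equal RPM. Cluster_39917, at a ratio of 1.02 whose interval also included it, lay on the other side under each of the 4 other scalings. With no replicate it is not known how far 2 libraries of the same genotype would differ, and these intervals cover counting error alone.

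Setting the mutants against each other uses no wild-type reads, but it uses the same single rdr2 library. With rdr6 ratios to wild type of 0.840 to 1.52, it largely repeats the comparison of rdr2 with wild type and is no separate support. All 17 plastid loci had more RPM in rdr6 than in rdr2, from 1.77-fold at Cluster_39920 to 68.3-fold at Cluster_39916. By the size rule 14 were higher and 0 lower, where 31.6% of all loci were called higher and 1.01% lower, and 13 of 37 mitochondrial loci were called higher. By share of plastid reads 12 were higher and 0 lower, where 40.3% of all loci, each within its compartment, were called higher and 0.611% lower. Cluster_39916 had 0.0352% of plastid reads in rdr2 and 1.14% in rdr6, and Cluster_39917 had 0.0291% and 0.376%.

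The mitochondrial genome was the nearest comparison among these libraries. Its 2 loci with most wild-type reads held 74.3% (74.0 to 74.6), 86.6% (86.3 to 86.9) and 79.8% (79.52 to 79.9996) of mitochondrial reads, where the plastid pair held 70.0%, 89.5% and 75.9%. The median log2 RPM ratio of rdr2 to wild type was -2.08 over 37 mitochondrial loci and -4.13 over the 17 plastid loci. In RPM all 37 mitochondrial loci were below wild type in rdr2, and 22 were called lower, against 14 of 17 plastid loci. With reads pooled the order of the organelles was the other way. All 51 mitochondrial loci together were 2.49-fold lower (2.46 to 2.52) and the plastid loci 1.80-fold lower (1.795 to 1.803). By within-compartment share, 1 of 37 mitochondrial loci and 12 of 17 plastid loci were called lower in rdr2, beside 34.7% of 3709 nuclear loci. Loci of 1 genome share their source and are no replicates, so the difference between the organelles was not tested.

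**Figure D5:**
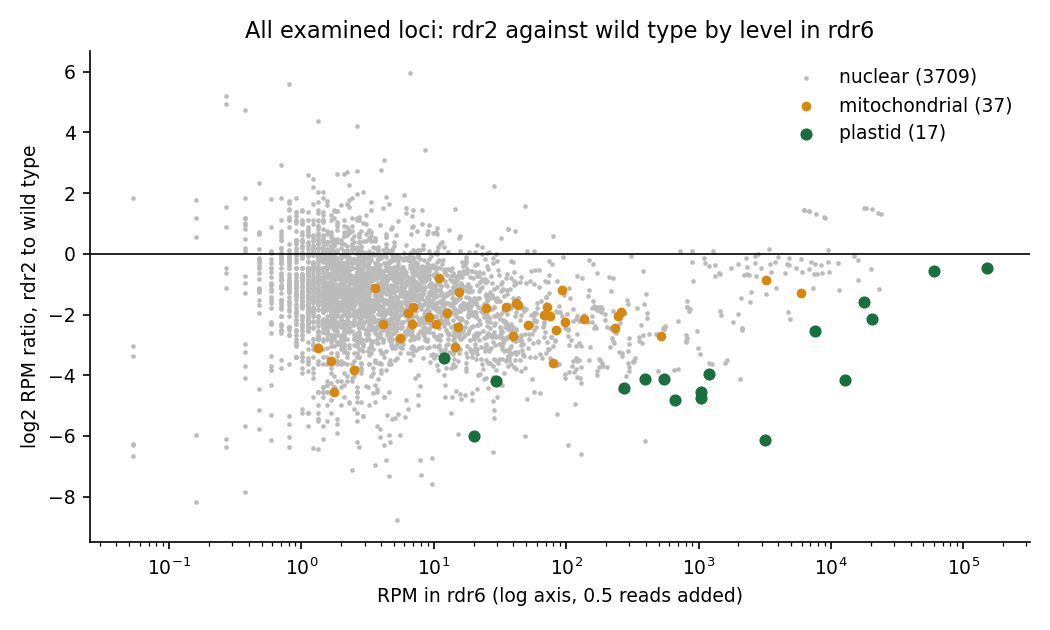
Log2 RPM ratio of rdr2 to wild type against RPM in rdr6 (log axis, 0.5 reads added) for the 3763 loci compared, with 3709 nuclear, 37 mitochondrial and 17 plastid points. The plastid medians lie lowest, at -4.13 against -2.08 for mitochondrial and -1.41 for nuclear loci, and the 2 plastid points furthest to the right, Cluster_39920 and Cluster_39923, lie nearest to 0, on its other side under 3 of 4 other scalings.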

How the data were processed

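The 3 deposited tables give a raw read count and an RPM value for each of the same loci, per the file headers. Per the submitters' processing notes, the authors used Bowtie 0.12.9 and SAMtools. The locus caller, build, strand and treatment of reads with several matches are not given in sources used here. Count divided by RPM put the library totals at 6992264 (wild type), 9703589 (rdr2) and 9346065 (rdr6) reads, and RPM times total rounded to the nearest whole read gave back 100% of counts in each. A read was worth 0.143, 0.103 and 0.107 RPM. No count test was run, because single libraries leave no residual degrees of freedom.

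Ratios carry exact Clopper-Pearson 95% intervals, computed from the split of a locus's reads between both libraries. Densities carry exact Poisson intervals. Reads amplified by PCR and not marked with molecular identifiers are not independent molecules, so intervals cover counting error only. Medians used log2 ratios with 0.5 reads added. Alternatives were TMM factors, median-of-ratios size factors, all locus reads, reads outside the 400 loci with most reads, other pseudocounts, thresholds and share bases. All 17 members are named, and the gene content of Cluster_39917 is not reported here. The members follow from position alone, but the choice to report on plastid loci, the lists and the gene groups were made with earlier results of these data known. Poisson counts were simulated at 39975 loci for rdr2 against wild type, and 3000 loci with enough reads were examined. Of 100 loci lowered 16-fold, drawn from those with at least 100 expected reads in both libraries together, 100 were called. Of the unchanged ones, 0 were called. The simulation holds no variation between libraries and a change far past the 4-fold rule. It therefore checks the calculation only, and not false calls between single libraries or loci with few reads. Tools were Python 3.11.15, numpy 2.4.6, scipy 1.17.1, pandas 2.3.3, matplotlib 3.10.9 and edgeR 4.0.16 for TMM factors.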

Additional observations from a re-analysis of the deposited data

How the results depend on the processing

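The count of 14 plastid loci called lower in rdr2 ranged from 12 to 15 over the alternatives tried, with 0 called higher. A 2-fold rule gave 15 and an 8-fold rule 12, and no share over all loci is given for these thresholds. Over all loci the split of 987 lower and 19 higher in RPM became 334 and 79 with TMM factors, 261 and 106 with median-of-ratios size factors and 217 and 130 on the base of reads outside the top 1%. The plastid median ranged from -4.21 to -2.76. For rdr6 the plastid median of -0.03 was -0.12 both with TMM factors and on that base, and 1 locus, near equality, changed side under each scaling. The 12 loci lower by within-plastid share became 6 against the reads of the 15 other loci. For this base and for the centred log ratios that follow, no share over all loci is given. With centred log ratios, which set the mean log2 reads of the 17 loci to 0 in each library, 2 were lower and 3 higher, and the share ratios of 4 loci crossed 1: Cluster_39919 turned from 0.160 to 1.12, Cluster_39909 from 0.312 to 2.19, Cluster_39913 from 0.605 to 4.25 and Cluster_39914 from 0.407 to 2.86. The share of the largest plastid loci in wild type, rdr2 and rdr6 was 49.9%, 64.9% and 54.2% for 1 locus, 79.4%, 93.3% and 83.3% for 3 loci, and 69.3%, 93.3% and 74.8% for the pair as shares of summed densities. Genes wholly inside loci numbered 122, and 108 with a margin of 200 bases, an alternative chosen after seeing the data. No paired analysis was possible because each genotype has 1 library. Depth limits Cluster_39919, Cluster_39922 and Cluster_39924, with 8, 3 and 10 rdr2 reads.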
